A study of Mus musculus with 2 samples.

Results

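The genes described are the 37 genes of the mouse mitochondrial chromosome, whose symbols start with mt-, together with 5 annotated pseudogenes on chromosome 1 that are nuclear copies of mitochondrial genes (Gm29216, Gm28661, Gm10925, Gm28437 and Gm28438). They were named by symbol and chromosome, with earlier results of these data known, and are 42 of 43346 Ensembl genes in the tables. Further copies in the same stretch of chromosome 1, Gm10222 and Gm28439, are not among them and had fewer counts than any of the 5. The 37 comprise 13 protein genes, 2 ribosomal RNA genes and 22 transfer RNA genes. All 37 lie on the mitochondrial chromosome in the annotation, and the 4 genes given as markers (mt-Co1, mt-Nd1, mt-Atp6 and mt-Rnr2) ranked between 9 and 20 by TPM among all features in both libraries. TPM is a transcript level corrected for gene length and scaled to a sum of 1000000 in each library.

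RNA was sequenced from 2 areas of cerebral cortex layer 5, cut out by laser capture. Both came from a male wild-type C57Bl6 mouse (strain B6NCrl in a further label) aged 8 months, with no treatment named. Each area measured 8000 square microns and was entered as 50 cells, and libraries were made by a Smart-seq type protocol with spike-in RNA added. The libraries carry biological replicate numbers but 1 donor label, so they were read as separate areas of 1 animal, and any SD below is the spread between these areas. There is 1 group and no control group, so no p-value was computed.

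Mitochondrial DNA is transcribed from both strands into long RNAs that each hold many genes. On the heavy strand unit, a short product ends after the ribosomal RNAs and a long product goes on through all but a single protein gene, while the light strand product holds mt-Nd6 and some of the transfer RNAs. Transfer RNAs lie between the other genes and are cut out by RNase P and RNase Z, which releases the messenger and ribosomal RNAs. All mitochondrial proteins encoded there are subunits of the respiratory chain or of ATP synthase, and neurons of the cortex depend on both for their ATP. Stretches of mitochondrial DNA have also been copied into nuclear chromosomes, where they remain as pseudogenes.

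Sequences from the GENCODE M21 transcripts of GRCm38 (mm10) show what a 100-base read could and could not tell apart. In each pair below the gene is on the + strand of the mitochondrial chromosome and the copy is on the - strand of chromosome 1. Capitals in the first 4 lines mark the bases that differ between a gene and its copy.
mt-Co1, chrM:6381-6460: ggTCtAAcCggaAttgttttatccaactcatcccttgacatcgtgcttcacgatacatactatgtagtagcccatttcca
Gm29216, chr1:24616118-24616197: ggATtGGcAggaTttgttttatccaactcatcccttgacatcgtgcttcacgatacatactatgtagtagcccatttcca
mt-Nd3, chrM:9459-9538: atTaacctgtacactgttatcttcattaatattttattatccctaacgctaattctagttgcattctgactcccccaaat
Gm28438, chr1:24613040-24613119: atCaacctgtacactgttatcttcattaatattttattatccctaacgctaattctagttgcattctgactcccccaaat
Placed end to end, Gm29216 matches the last 492 bases of mt-Co1 with 98.8% identity. Its 6 differing bases, T1056A, C1057T, A1059G, A1060G, C1062A and A1066T, all fall in its first bases (positions count from 1 at the 5′ end of the mitochondrial gene, with the gene's base first). The rest of Gm29216 is identical to mt-Co1. Whether the 6 bases are substitutions or lie outside the copied stretch was not tested. Gm28438 matches mt-Nd3 over 345 bases with 99.7% identity and a single substitution, T3C.

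The other 3 copies have no substitution at all and end before their gene does. Capitals in the next 4 lines mark the bases of the gene that the copy's annotated transcript lacks.
mt-Atp6, chrM:8548-8607: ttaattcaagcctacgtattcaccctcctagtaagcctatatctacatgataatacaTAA
Gm10925, chr1:24613974-24614030: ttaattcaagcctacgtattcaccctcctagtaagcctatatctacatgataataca
mt-Co3, chrM:9331-9390: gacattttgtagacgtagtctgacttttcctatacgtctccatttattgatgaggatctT
Gm28437, chr1:24613189-24613247: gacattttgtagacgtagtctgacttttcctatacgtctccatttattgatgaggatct
Gm10925 is identical to mt-Atp6 over 678 bases and lacks the last 3. Gm28437 is identical to mt-Co3 over 783 bases and lacks the final base, and Gm28661 is identical to mt-Co2 over 681 bases and lacks the last 3. The 5 copies and 2 more, Gm10222 (a copy of mt-Nd4l) and Gm28439 (a copy of the first 876 bases of mt-Nd4), stand in 1 block at chr1:24611535-24616197 on the - strand, 4663 bases long. The chromosome 1 bases between the annotated copies were not compared.

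The share of each gene that a 100-base read cannot place was counted by sliding a 100-base window along every transcript. All but 3 of the 585 windows of mt-Co2 and all but 3 of the 582 windows of mt-Atp6 also occurred in the copy. Only 1 of the 685 windows of mt-Co3 was absent from Gm28437. For mt-Nd3, 243 of 249 windows were shared with Gm28438, and for mt-Co1, 380 of 1446 were shared with Gm29216. The other 1066 windows of mt-Co1 start upstream of the copy or span the differing bases near its start. Among 141767 annotated transcripts, 7 of the 15 mitochondrial protein and ribosomal RNA genes shared no window with any other: mt-Atp8, mt-Cytb, mt-Nd1, mt-Nd5, mt-Nd6, mt-Rnr1 and mt-Rnr2. No window matched another transcript in reverse orientation.

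**Figure D1:**
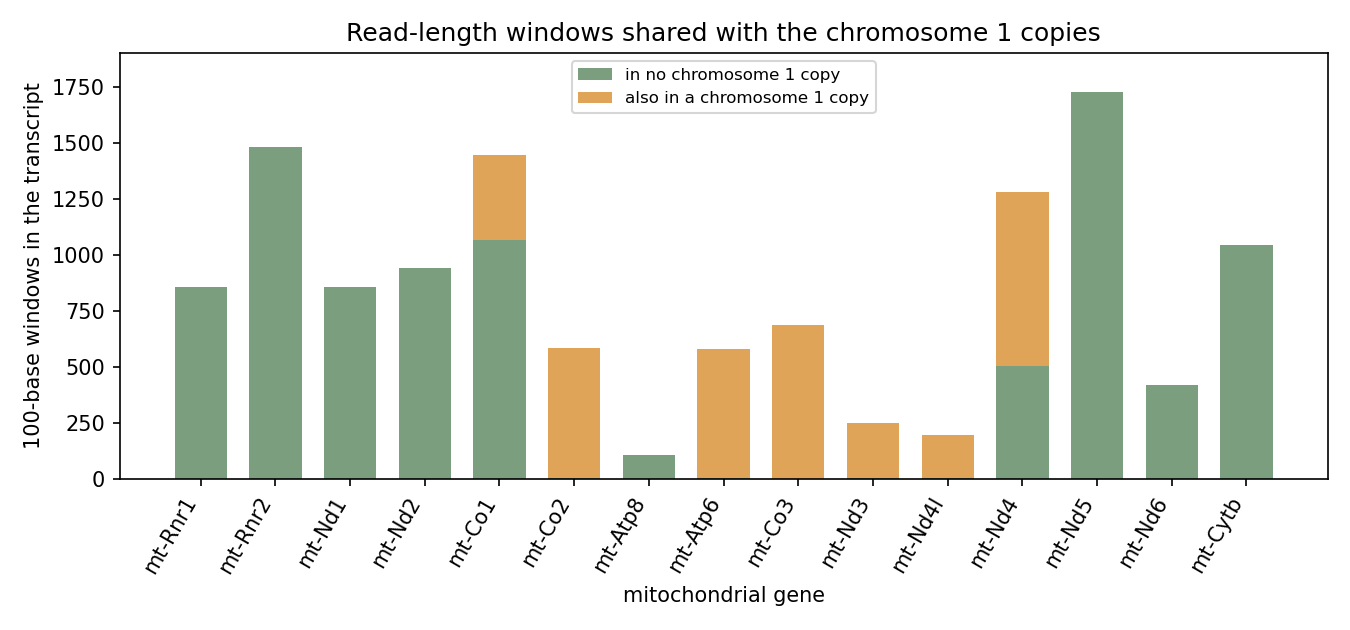
Number of 100-base windows in each of the 15 mitochondrial protein and ribosomal RNA genes (vertical axis), split into windows absent from the chromosome 1 copies (green) and windows also present in one (orange); copies Gm10222 and Gm28439 are included. mt-Co2, mt-Atp6, mt-Co3, mt-Nd3 and mt-Nd4l are almost wholly orange, with 1 to 6 windows of their own, and mt-Co1 and mt-Nd4 are orange in part.

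None of the 22 transfer RNA genes received a count in either library, and the tables could not have given them one. The longest and the shortest, printed whole, are both shorter than a read.
mt-Tl1, chrM:2676-2750, + strand: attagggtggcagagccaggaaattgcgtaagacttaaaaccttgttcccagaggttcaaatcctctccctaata
mt-Ts2, chrM:11613-11671, + strand: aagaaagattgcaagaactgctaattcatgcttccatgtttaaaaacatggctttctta
mt-Tl1, a leucine transfer RNA that follows mt-Rnr2, has 75 bases and mt-Ts2, a serine transfer RNA, has 59. The deposited effective length, the number of positions at which a read could start, was 0 for all 22 of them, and it was the length minus 99 for each of the 26303 single-transcript features of 100 bases or more. The zeros of the 14 heavy strand and 8 light strand transfer RNAs therefore say nothing of their abundance.

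The 15 remaining mitochondrial genes held 1503059 expected counts in replicate 1 and 1435059 in replicate 2, of library totals of 26059117 and 28276843. An expected count is an estimated number of reads, which need not be whole because a read that fits several features is divided among them. These were 5.77% of all counts (exact 95% Clopper-Pearson interval 5.76 to 5.78) in replicate 1 and 5.08% (5.07 to 5.08) in replicate 2. Such intervals cover counting error only, since the reads carry no molecular identifiers. The 5 pseudogenes held 684443 and 673123 counts, or 2.63% and 2.38%. Against the spike-in RNA, the mitochondrial genes had 0.802 counts per spike-in count in replicate 1 and 0.639 in replicate 2, a mean of 0.721 ± 0.115 (SD, n = 2). The mitochondrial genes were therefore higher in replicate 1 by both measures, and by more than the counting intervals of the shares. In bulk samples of this kind, fewer cells of a type and less RNA per cell cannot be told apart. Of the 20 features with the highest TPM, 10 were among these genes in each library (6 mitochondrial genes and 4 pseudogenes) and 6 were spike-ins.

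By transcription unit, the long heavy strand unit, with 12 protein genes and 11 transfer RNA genes, held 72.5% of the mitochondrial counts in replicate 1 and 75.5% in replicate 2. The short heavy strand unit, which runs from mt-Tf to mt-Tl1 and holds mt-Rnr1 and mt-Rnr2, held 26.2% and 23.4%, a mean of 24.8% ± 2.01 (SD, n = 2). The light strand, with mt-Nd6 and 8 transfer RNA genes, held 1.28% (1.26 to 1.29) and 1.15% (1.13 to 1.16). All of the light strand counts were those of mt-Nd6, because its transfer RNAs could not be counted. The ribosomal RNA and light strand shares were lower in replicate 2, and the long unit was higher there.

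The ribosomal RNAs, structural RNAs of the mitochondrial ribosome, had unequal TPM although they are neighbours in 1 unit. Whether the library protocol captured these RNAs, mt-Nd6 and the other messenger RNAs equally well was not tested. mt-Rnr2, the large subunit RNA, was at 10044 TPM in replicate 1 and 7983 in replicate 2. mt-Rnr1, the small subunit RNA, was at 4015 and 3798 TPM. Per length, mt-Rnr2 was 2.50 times mt-Rnr1 in replicate 1 and 2.10 times in replicate 2 (2.30 ± 0.28, SD, n = 2). Neither gene shares a read-length window with another transcript. As a share of the mitochondrial counts, mt-Rnr2 held 21.3% in replicate 1 and 18.4% in replicate 2, and mt-Rnr1 held 4.92% and 5.04%, so the lower share of this unit in replicate 2 lay in mt-Rnr2.

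Among the protein genes of the long heavy strand unit, the genes of ATP synthase had the highest deposited levels, whereas with the copies added mt-Co3 was above mt-Atp8 in both libraries. mt-Atp8, which encodes a small subunit of the membrane part of ATP synthase, was at 15893 TPM in replicate 1 and 13377 in replicate 2. mt-Atp6, a subunit of the proton path, was at 12727 and 11789 TPM. These genes share bases on 1 messenger RNA, and their overlap is printed in capitals.
end of mt-Atp8, chrM:7900-7969, + strand: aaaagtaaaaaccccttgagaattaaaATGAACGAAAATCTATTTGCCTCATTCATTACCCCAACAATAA
start of mt-Atp6, chrM:7927-7996, + strand: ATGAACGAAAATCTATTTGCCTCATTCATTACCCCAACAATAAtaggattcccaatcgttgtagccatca
The overlap of 43 bases is shorter than a read, so no whole 100-base read lies in both genes. As deposited, mt-Atp8 was 1.25 times mt-Atp6 in replicate 1 and 1.13 times in replicate 2. When the counts of Gm10925 were added to mt-Atp6, mt-Atp6 reached 24272 and 21646 TPM, and mt-Atp8 was 0.655 and 0.618 times as high. The order of these genes on their shared messenger RNA thus turned with the handling of the copy, in both libraries. Only 105 read positions underlie mt-Atp8, with 35911 and 31256 counts.

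The 3 mitochondrial genes of cytochrome c oxidase (complex IV) form its catalytic core. mt-Co1, the subunit that binds the haem groups at which oxygen is reduced, was at 6875 and 7617 TPM and was higher in replicate 2. mt-Co2, which takes electrons from cytochrome c, was at 6253 and 5273 TPM, and mt-Co3, a core subunit without redox centres, at 4893 and 4036 TPM. With the copies added, the order inside the complex was the reverse. mt-Co3 then had 22852 and 21935 TPM, mt-Co2 14567 and 13821 TPM, and mt-Co1 11618 and 12156 TPM, with no overlap between the 3 genes. mt-Cytb, the cytochrome b of complex III, shares no window with a copy and was at 7701 and 7327 TPM.

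The 7 genes of complex I, the NADH dehydrogenase, covered the widest range. mt-Nd1 was highest at 6608 and 6471 TPM, followed by mt-Nd4 at 4357 and 4250, and by mt-Nd2 at 3038 and 2800. mt-Nd3 was at 1147 and 1305 TPM and mt-Nd5, the longest gene, at 1252 and 1108 TPM, ranges that overlap. mt-Nd4l had only 64.3 and 94.7 TPM as deposited, from 274 and 417 counts, the lowest of the 15 genes in both libraries. It shares 195 of 198 windows with Gm10222, a copy outside the 5 chosen, which had 4535 and 4934 counts. With that copy added, mt-Nd4l was at 1129 and 1214 TPM, within the range of mt-Nd5. Adding Gm28438 to mt-Nd3 gave 5415 and 4066 TPM.

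mt-Nd4l and mt-Nd4 are also read from 1 messenger RNA, and they share 7 bases, in capitals.
end of mt-Nd4l, chrM:10134-10173, + strand: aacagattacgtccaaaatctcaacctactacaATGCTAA
start of mt-Nd4, chrM:10167-10206, + strand: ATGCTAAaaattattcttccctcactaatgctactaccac
As deposited, mt-Nd4 was 67.8 times mt-Nd4l in replicate 1 and 44.9 times in replicate 2. With Gm10222 added to mt-Nd4l, the ratios were 3.86 and 3.50. mt-Nd4 itself shares 777 of 1279 windows with Gm28439, yet that copy had 2.89 and 5.6 counts beside 119921 and 120957 for the gene, which has 502 windows of its own.

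mt-Nd6, the complex I subunit gene of the light strand, was at 2121 TPM in replicate 1 and 1760 in replicate 2. It was 0.381 and 0.370 times the median of the 12 heavy strand protein genes per length (0.375 ± 0.0077, SD, n = 2). As deposited, this ratio moved little between the areas. The spread was wider with the 5 pseudogenes counted with their genes (0.276 ± 0.029) and with posterior means (0.288 ± 0.037). The level of mt-Nd6 was above those deposited for mt-Nd3, mt-Nd5 and mt-Nd4l in both libraries. With Gm28438 added, mt-Nd3 was above mt-Nd6 in both, at 5415 and 4066 TPM. The heavy strand product also runs through this stretch in the opposite direction, and mt-Nd6 and mt-Nd5 share 14 bases. How the counting treated strand is not given in the sources used here, so reads of mt-Nd6 and reads of the heavy strand product across it cannot be told apart.

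**Figure D2:**
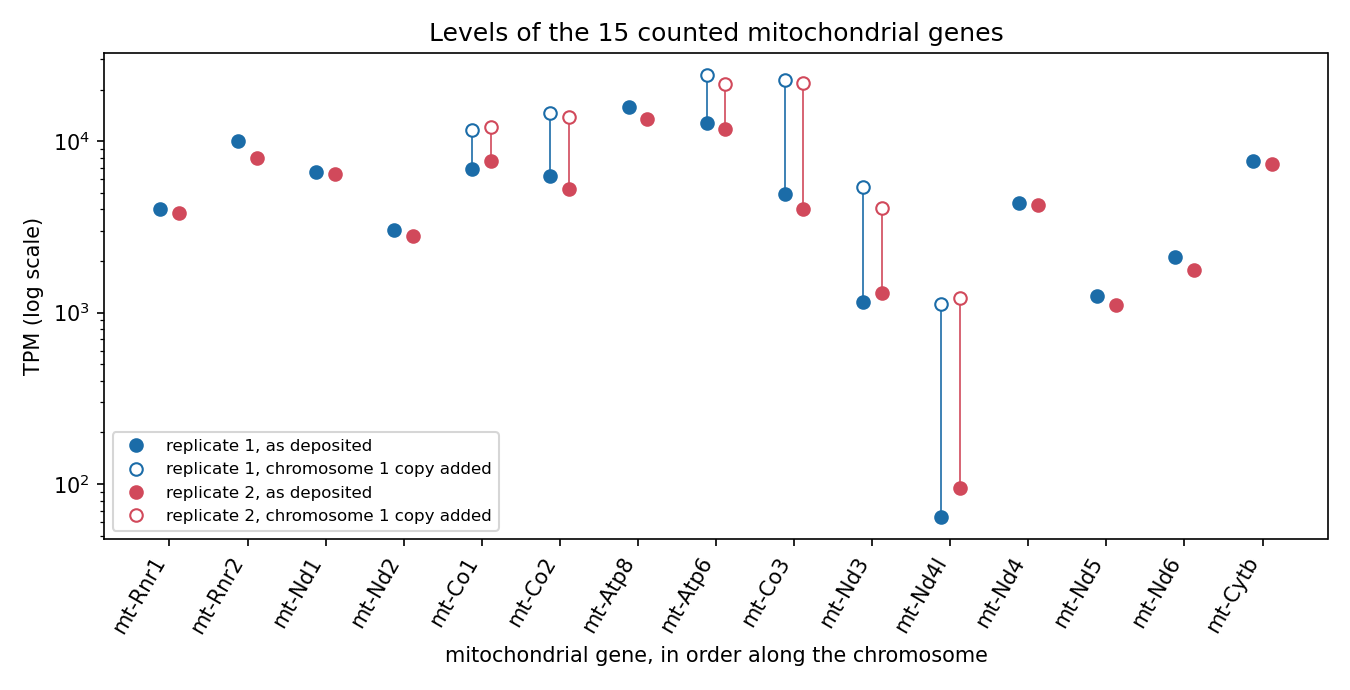
TPM on a log axis for the 15 mitochondrial genes with counts, in chromosome order, in replicate 1 (blue) and replicate 2 (red). Filled points are deposited levels and open points, joined to them by a line, add the counts of the chromosome 1 copy; mt-Nd4l moves from 64.3 and 94.7 TPM to 1129 and 1214, and mt-Co3 from 4893 and 4036 to 22852 and 21935.

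Across the 12 heavy strand protein genes, which start from 1 primary transcript, the highest deposited TPM was 247 times the lowest in replicate 1 and 141 times in replicate 2. mt-Nd4l alone set the lower end. When the 6 copies that match whole or partial genes of this set were added to their genes, the range was 20.6-fold on average. Of the 14 pairs of neighbours in the order by mean TPM, 3 overlapped between the libraries as deposited (mt-Cytb with mt-Co1, mt-Co3 with mt-Nd4, and mt-Nd3 with mt-Nd5), and 9 of the 15 genes had the same rank in both. With the copies added, 4 pairs overlapped (mt-Atp6 with mt-Co3, mt-Atp8 with mt-Co2, mt-Nd3 with mt-Nd4, and mt-Nd5 with mt-Nd4l), and 7 genes kept their rank.

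Of the 5 chromosome 1 pseudogenes, 4 were listed above the gene they copy in both libraries, and Gm10925 was below mt-Atp6 in both. Gm28437, the copy of mt-Co3, was at 17985 TPM in replicate 1 and 17925 in replicate 2. Gm29216, the copy of the end of mt-Co1, was at 17453 and 16699 TPM. Gm10925, the copy of mt-Atp6, was at 11605 and 9908 TPM, and Gm28661, the copy of mt-Co2, at 8357 and 8592 TPM. Gm28438, the copy of mt-Nd3, was at 4320 and 2795 TPM. As deposited, Gm28437 and Gm29216 were above every mitochondrial gene in both libraries. By posterior mean TPM this held for Gm29216, while Gm28437 in replicate 1 (13948) was below mt-Atp8 (15494) and mt-Atp6 (14378). Together the 5 copies took 56.3% of the counts of copies and matched genes in replicate 1 and 55.7% in replicate 2 (56.0% ± 0.45, SD, n = 2).

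The tables give the posterior SD of each count, the uncertainty left by dividing reads between features, and it differed widely between the pairs. For mt-Co3 the count was 72119 in replicate 1 with a posterior SD of 76975, and 61520 in replicate 2 with a posterior SD of 81218, so the SD exceeded the count in both. Gm28437 took 78.6% and 81.6% of that pair by expected count, but 62.5% and 62.8% by the posterior mean count. The deposited interval for mt-Co3 ran from 2897 to 16783 TPM in replicate 1 and from 2476 to 16401 in replicate 2 (the sources used here do not state the level of these intervals). The single window that mt-Co3 has of its own ends in the capital T printed above.

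The pair of mt-Atp6 (159393 and 152687 counts) with Gm10925 (144589 and 127659) had posterior SDs of 40665 and 36730. The copy took 47.6% and 45.5% by expected count and 39.2% and 38.4% by posterior mean. The pair of mt-Co2 (78714 and 68648 counts) with Gm28661 (104660 and 111278) had posterior SDs of 27162 and 29995, and the copy took 57.1% and 61.8% by expected count. By posterior mean it took 46.5% and 49.4%, so the larger part was then with mt-Co2. In these 3 pairs, where 1 to 3 windows belong to the gene and 0 to the copy, nearly every read of the pair fits both features. The sums of mt-Co3, mt-Co2 and mt-Atp6 with their copies differed by 1.04-fold, 1.05-fold and 1.12-fold between the areas.

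In the pairs of mt-Co1 and mt-Nd3, whose copies differ from the gene at the bases printed above, the posterior SD was smaller. It was smaller still for mt-Nd4 with Gm28439, a copy without substitutions, at 3.2 and 3.79 counts. What set its size was not tested. mt-Co1 had 213918 and 245102 counts and Gm29216 had 147599 and 146042, with posterior SDs of 274 and 284 counts. Per read position, Gm29216 had 376 and 372 counts and mt-Co1 had 148 and 170. Only 13 of the 393 windows of Gm29216 are absent from mt-Co1, all of them across the differing bases printed above. Whether reads match the capitals of the gene or of the copy was not tested, since the tables hold no reads. mt-Nd3 had 6147 and 7229 counts and Gm28438 had 22868 and 15303, with posterior SDs of 539 and 703. That copy is told apart by 3 windows at its start.

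**Figure D3:**
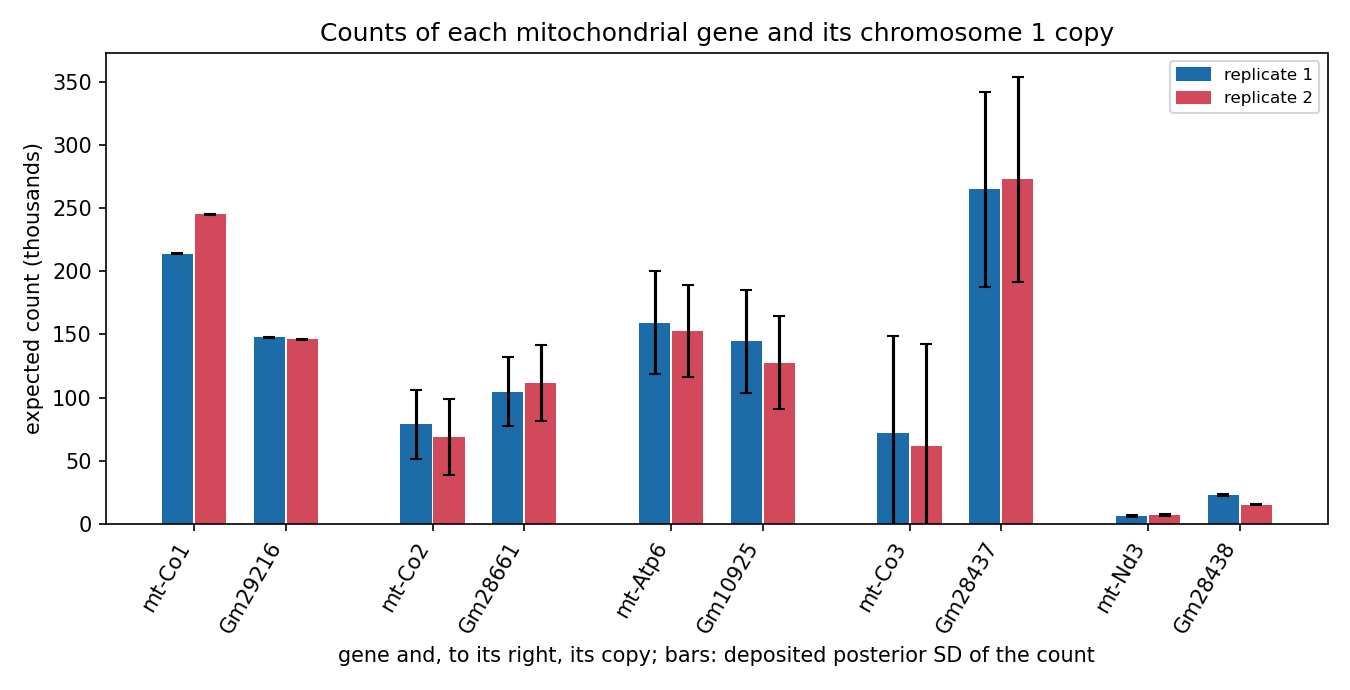
Expected counts of 5 mitochondrial genes and of the chromosome 1 copy to the right of each, in replicate 1 (blue) and replicate 2 (red), with the deposited posterior SD as bars. The bars of mt-Co3 and Gm28437 are 76975 and 81218 counts and reach 0 for mt-Co3, while those of mt-Co1 and Gm29216 are 274 and 284 counts.

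Annotated copies on chromosome 2 that share a read-length window with these genes drew few counts. Copies without such a window were not searched for. Gm13340 matches the whole of mt-Co1 with 97.6% identity, and Gm13339 matches part of mt-Nd2 with 96.7%. Gm13341 matches mt-Co2 with 97.6% identity apart from gaps of 12 bases. Gm13340 had 78.3 and 81.5 counts, Gm13341 had 51.4 and 54.6, and Gm13339 had 2.64 and 1.27. Gm13340 and Gm13341 lie far below Gm29216 and Gm28661, the chromosome 1 copies of the same genes.

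Between the areas, 10 of 13 protein genes, both ribosomal RNA genes and 4 of 5 pseudogenes were higher in replicate 1, which is 16 of the 20 genes with counts. Of the 4621 features whose mean reached 20 TPM and whose counts summed to at least 100, 44.9% were higher in replicate 1. The median log2 ratio of replicate 1 over replicate 2, on the log2(TPM + 1) scale, was 0.11 for the protein genes, 0.064 for the pseudogenes and -0.04 for all features. Only Gm28438 differed by more than 1.5-fold, 1 of 20 genes, beside 12.1% of all features (4.03% higher in replicate 1 and 8.07% higher in replicate 2). No mitochondrial gene passed that fold. Beyond 2-fold there were 0 of the 20 genes, beside 2.66% of all features (1.1% higher in replicate 1 and 1.56% higher in replicate 2). With 1 library on each side, these are differences between the areas and have no replicate check.

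mt-Rnr2 was the mitochondrial gene with the highest ratio, 1.26-fold higher in replicate 1. mt-Co3 followed at 1.21-fold, mt-Nd6 at 1.20-fold, and mt-Atp8 and mt-Co2 at 1.19-fold each. The deposited intervals of mt-Co3 (2897 to 16783 and 2476 to 16401 TPM) overlapped between the areas. So did those of mt-Co2 (5295 to 12313 and 4540 to 11488 TPM), while those of mt-Rnr2, mt-Nd6 and mt-Atp8 did not. mt-Nd1, mt-Nd4, mt-Cytb and mt-Rnr1 differed by 1.02-fold to 1.06-fold. mt-Co1, mt-Nd3 and mt-Nd4l were lower in replicate 1, at ratios of 0.903, 0.879 and 0.679. Scaled to total counts instead of TPM, the same 3 genes were lower there, and scaled to spike-in counts only mt-Nd4l was. The median of all features itself moved from -0.04 with TPM to 0.018 with total counts and 0.16 with spike-in counts, while that of the protein genes moved from 0.11 to 0.18 and 0.32.

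Gm28438 was 1.55-fold higher in replicate 1 while its gene, mt-Nd3, was higher in replicate 2. The deposited intervals of Gm28438, 3977 to 4386 TPM in replicate 1 and 2447 to 2947 in replicate 2, did not overlap. Those of mt-Nd3, 948 to 1339 TPM in replicate 1 and 1054 to 1544 in replicate 2, did overlap. Added together, mt-Nd3 and Gm28438 were at 5415 TPM in replicate 1 and 4066 in replicate 2, a ratio of 1.33. Adding the copies also drew the ratios of mt-Co3, mt-Co2, mt-Co1 and mt-Nd4l towards 1, to 1.04, 1.05, 0.956 and 0.929, and moved that of mt-Atp6 from 1.08 to 1.12.

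**Figure D4:**
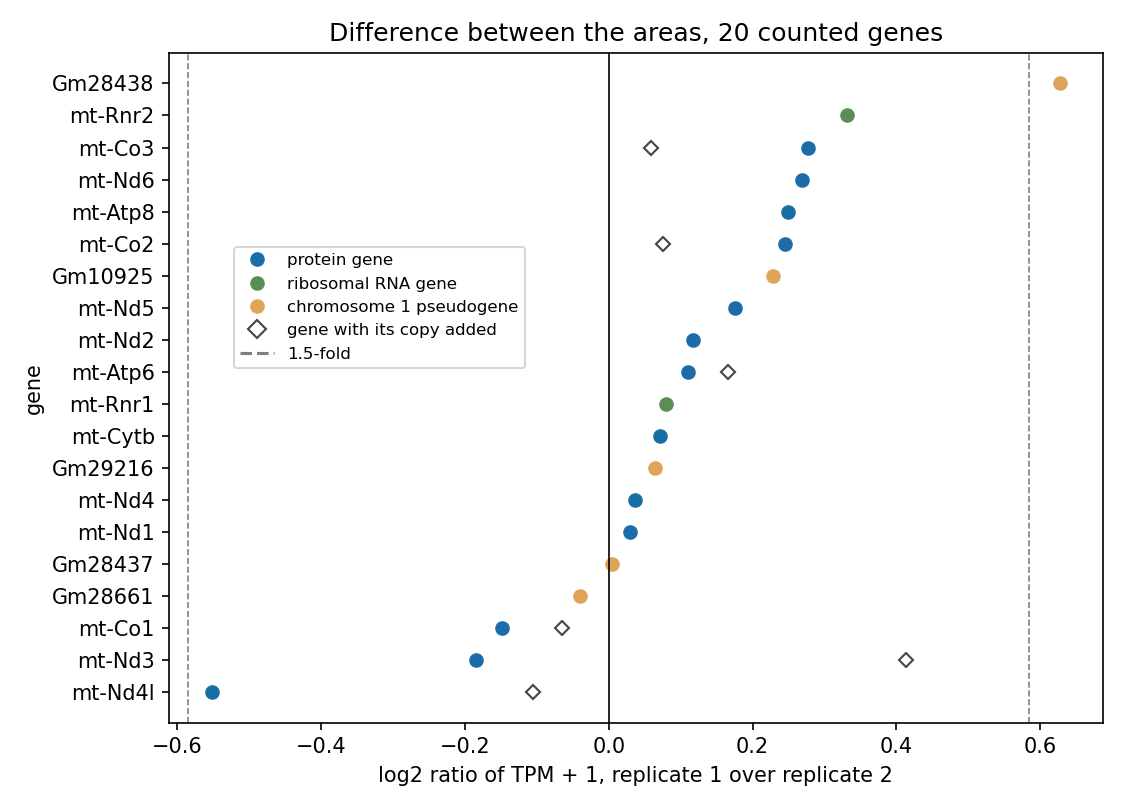
Log2 ratio of replicate 1 over replicate 2, on the TPM + 1 scale, for the 20 genes with counts, sorted; filled points are deposited values by gene class, open diamonds a gene with its copy added, and dashed lines 1.5-fold. Only Gm28438, at 0.63, lies outside the lines, and the diamond of mt-Nd3 (0.41) lies on the other side of 0 from its filled point (-0.19).

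Markers of other cells also differed between the areas. The 3 microglia markers C1qb, Cx3cr1 and P2ry12 summed to 110 TPM in replicate 1 and 25.6 in replicate 2, and all 3 were higher in replicate 1. The 3 endothelial markers summed to 91.2 and 42.7 TPM, and all were higher in replicate 1. The 3 oligodendrocyte markers summed to 431 and 697 TPM, with 0 of 3 higher in replicate 1, and the 3 astrocyte markers to 96.6 and 94.8. Of the interneuron markers, Gad1 was at 438 and 65.2 TPM, Pvalb at 918 and 145, and Sst at 194 and 2859. The 5 layer 5 markers, all at 1 TPM or more in both libraries, summed to 3013 and 3742 TPM, of which Pcp4 made up 2922 and 3599. Of these 5 only Bcl11b was higher in replicate 1, at 11.0 and 6.91 TPM, and Rbp4 was at 42.1 and 88.2. None of the 20 markers was at 0, and the part of these cells in the mitochondrial differences was not tested.

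Nuclear genes for subunits of the same complexes were set beside the mitochondrial ones, per length. In complex I, the 7 nuclear core genes had a median of 303 TPM in replicate 1 and 266 in replicate 2, and the median of the 7 mitochondrial genes was 6.99 and 6.61 times as high. In complex III, mt-Cytb was 22.3 and 22.1 times the median of 4 nuclear genes, which was 346 and 331 TPM. In complex IV, the 10 nuclear genes were more abundant, with a median of 2025 and 1617 TPM and the highest, Cox8a, at 3614 and 3382. The median of the 3 mitochondrial genes was 3.09 and 3.26 times that level as deposited and 7.19 and 8.55 times with copies added. In ATP synthase, the median of mt-Atp6 and mt-Atp8 was 14.8 and 16.2 times that of 12 nuclear genes, which was 966 and 776 TPM. With copies added, the ratios were 10.01 and 10.52 in complex I and 20.8 and 22.6 in ATP synthase. Against these listed nuclear sets, the excess of mitochondrial genes was smallest in complex IV in both areas, as deposited and with copies added. The nuclear sets differed in size, held core genes only for complex I, and were chosen after values were seen. Whether this order of the complexes holds for other nuclear genes was not tested.

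All 10 nuclear complex IV genes were higher in replicate 1, with a median log2 ratio of 0.35, whereas mt-Co1 was lower there and mt-Co2 and mt-Co3 were higher. Of the 12 nuclear ATP synthase genes, 10 were higher in replicate 1, with a median of 0.17, and mt-Atp6 and mt-Atp8 were higher there too. For complex I, 6 of 7 nuclear genes were higher (median 0.068), and for complex III 2 of 4 were. Over all features, 44.9% were higher in replicate 1. None of the 33 nuclear genes except Atp5e, a small subunit of ATP synthase at 1065 and 697 TPM, differed by more than 1.5-fold, beside 12.1% of all features in either direction and 4.03% higher in replicate 1.

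**Figure D5:**
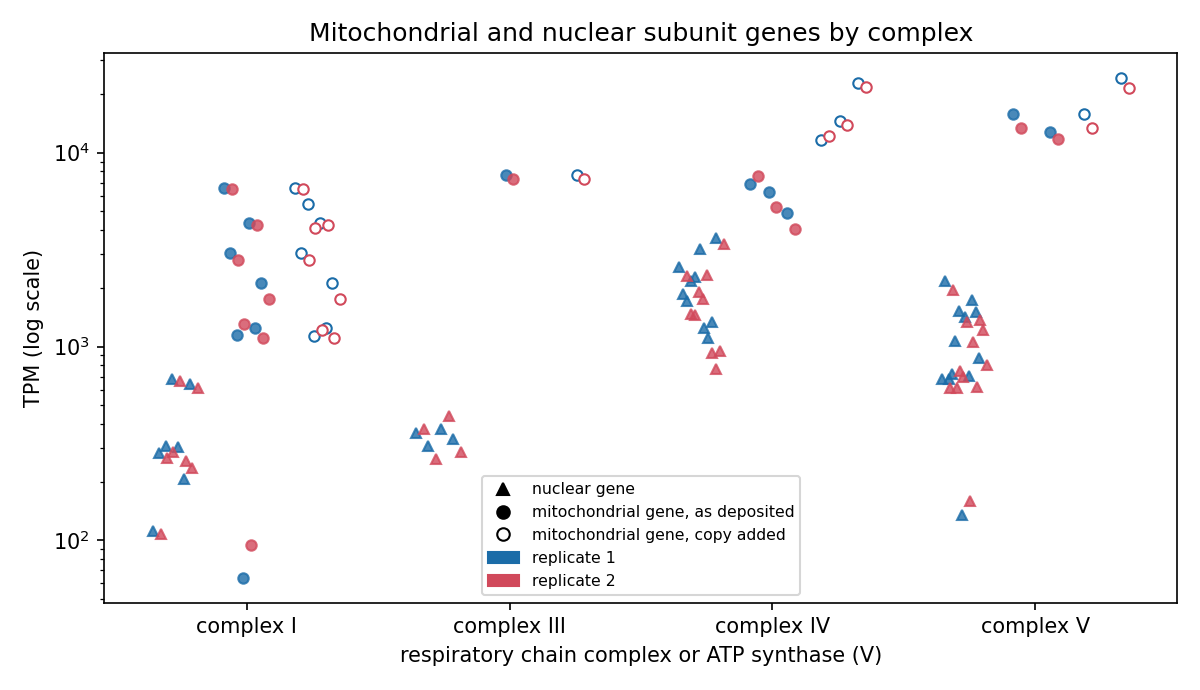
TPM on a log axis of nuclear subunit genes (triangles) and mitochondrial genes as deposited (filled circles) and with the chromosome 1 copy added (open circles), by complex, in replicate 1 (blue) and replicate 2 (red). The mitochondrial genes lie above all listed nuclear genes of their complex except mt-Nd4l as deposited, at 64.3 and 94.7 TPM.

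The nuclear genes that transcribe, process and translate mitochondrial RNA were present at much lower levels than the RNA itself. All 47 of 47 genes in 3 lists were at 1 TPM or more in both libraries, and 37 were at 5 TPM or more, with medians of 13.3 and 14.3 TPM. For transcription and replication (16 genes), the highest were Ssbp1, which binds single-stranded mitochondrial DNA, at 53.4 and 50.6 TPM, Tfb2m, which opens the promoter, at 45.9 and 37.3, Tfam, which packages the DNA and starts transcription, at 21.5 and 39.7, and Mterf3 at 29.9 and 29.3. The lowest were the helicase gene Twnk at 2.08 and 1.45 TPM and Polg2, the accessory subunit of the DNA polymerase, at 2.96 and 1.41.

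For RNA processing and stability (21 genes), Slirp, which binds and stabilises mitochondrial messenger RNA, stood highest at 241 and 217 TPM. Rexo2, which degrades short RNAs, was at 78.8 and 59.95 TPM, Grsf1, of the RNA granules, at 51.4 and 69.4, and Hsd17b10, a subunit of RNase P, at 47.7 and 51.7. Prorp, the catalytic subunit of RNase P, and the deadenylase gene Pde12 were lowest, at 3.10 and 2.22 TPM and at 3.19 and 3.35. For translation (10 genes), Tufm and Tsfm, which encode elongation factors, were at 48.8 and 44.6 TPM and at 40.2 and 26.8, Mtif2, an initiation factor, at 30.5 and 36.9, and Mrrf, which recycles ribosomes, at 21.4 and 24.8. Taco1, which acts in translation of mt-Co1, and Mtrf1 were lowest, at 6.98 and 7.96 TPM and at 7.72 and 7.70. Only 15 of the 47 genes were abundant enough for the fold comparison. Of these, 0 were more than 1.5-fold higher in replicate 1 and Tfam was so in replicate 2, beside the 4.03% and 8.07% of all features.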

How the data were processed

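The deposited gene and transcript tables were used as the authors made them. Per the file headers they give an expected count, TPM, posterior mean estimates, and for each count the posterior SD and for each TPM the bounds of an interval, a signal that is never negative. The deposited transcript tables give each transcript's percent of its gene, which was 100 for each of these genes with counts. The assembly is mm10 with annotation release M4, per the deposited notes, while the sources used here name no program, aligner or strand setting. The 26248 rows named by a bare number held 7.79e-05% and 1.77e-05% of counts and were left out of lists. Positions, symbols and transcripts came from GENCODE M21, also GRCm38.

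The members, lists and comparisons were chosen with earlier results of these data known. All 42 genes were accounted for, and each machinery list is represented by its top 4 and bottom 2 genes by mean TPM. Atp5e, the nuclear subunits and copies outside the 5 were chosen after values were seen.

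Shares used expected counts over all features, with exact Clopper-Pearson 95% intervals of rounded counts. Ratios were taken on log2(TPM + 1), which makes changes of low genes look smaller, over features whose mean reached 20 TPM and whose counts summed to at least 100. A copy was counted with its gene by adding counts over the gene's effective length. Copies were aligned to genes with Biopython 1.88. The libraries are not duplicates: over 14067 genes the chi-square statistic was 68.6 per degree of freedom. Steps were tested on simulated data and used matplotlib 3.10.9, scipy 1.17.1, pandas 2.3.3 and numpy 2.4.6 in Python 3.11.15.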

Additional observations from a re-analysis of the deposited data

How the results depend on the processing

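Of 78 alternative values, 54 were classed as unmoved and the other 24 as moved. Shares, ratios and ranges counted as moved when they shifted by more than the SD between the areas. For the median log2 ratio the limit was an error of 0.010, which is no spread between the areas. All alternatives of that median kept its positive direction. Counts of genes had no such error and were judged by direction and side. Values from a single library could not move further, since with only 2 libraries each lies within the SD of the mean. Shares without the transfer RNA genes were fixed too, because these genes had no counts. Such values made up most of the 54 and are no check on the results. Orders among genes were not counted here, and those of mt-Atp8 with mt-Atp6 and within complex IV turned with copies added. Some of the values that moved turn on where the reads shared with the chromosome 1 copies are counted, which by construction adds counts to the mitochondrial genes. With the 5 pseudogenes counted with their genes, the mitochondrial share of counts was 7.92% and the counts per spike-in count 1.05. The light strand share was then 0.828%, the ribosomal RNA unit share 17.0%, and mt-Nd6 was 0.276 times the median of the heavy strand protein genes. The range from highest to lowest heavy strand protein gene was then 305-fold, and the median log2 ratio of the 13 protein genes was 0.076. With Gm10222 as a 6th copy, an alternative chosen after seeing the data, the share was 7.94%, the range 20.6-fold and the median 0.076. The range was 12.96-fold without mt-Nd4l (also chosen after seeing the data), 10.9-fold without mt-Atp8 and mt-Nd4l, and 684-fold in CPM, counts scaled to the library total without correction for length. In CPM mt-Nd6 was 0.253 times the median of the other protein genes. With posterior mean estimates it was 0.288 times. The pseudogenes then took 47.6% of the counts of their pairs in place of 56.0%, so the larger part changed to the mitochondrial genes. The median log2 ratio of the protein genes was 0.18 in CPM, 0.071 with posterior means, 0.099 with TPM of nuclear genes alone and 0.32 scaled by spike-in counts. For the alternatives other than added copies and removed genes, the cause was not tested.

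Taken library by library, that is without replicate 2 or without replicate 1, the mitochondrial share ranged from 5.08% to 5.77%, the counts per spike-in count from 0.639 to 0.802, the light strand share from 1.15% to 1.28% and the ribosomal RNA unit share from 23.4% to 26.2%. The mt-Nd6 ratio ranged from 0.370 to 0.381, the range of heavy strand genes from 141-fold to 247-fold and the pseudogene share from 55.7% to 56.3%. No paired analysis was possible because all libraries belong to 1 group. The depth of 26059117 and 28276843 counts leaves counting intervals far narrower than the spread between the areas, so the limits lie elsewhere: 2 areas of 1 animal, reads that fit more than 1 feature, transfer RNAs that could not be counted and an unknown strand setting.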
